A study of Mus musculus with 4 samples.

Results

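Imprinted genes are expressed mainly from the copy inherited from 1 parent, and they lie in clusters that answer to shared control regions. This report describes 36 imprinted genes from 17 clusters or single loci in mouse cortical cells after knockdown of CTCF, out of 37437 genes listed per library. The 36 were taken by symbol from a fixed list, and each matched 1 Ensembl gene through GENCODE vM21. RNA was sequenced from primary mouse cortical culture infected with adeno-associated virus, in 2 libraries with CTCF knockdown (shCTCF) and 2 with knockdown of lacZ, a bacterial gene absent from the mouse (shLAC). Both groups thus carry a virus and a knockdown construct, and the one in shLAC is not aimed at a mouse gene. The sources used here do not give strain, age or the promoter that drives the knockdown. They also do not say that the 2 replicates of a group are separate cultures. The p-values therefore measure only how far these libraries spread, and that spread may be technical.

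Each imprinted cluster carries a control region that is methylated on 1 parental copy. At the H19-Igf2 cluster, CTCF binds the unmethylated maternal control region and keeps enhancers from reaching Igf2, so that H19 is expressed from the maternal copy and Igf2 from the paternal copy. At other clusters a long noncoding RNA is expressed from 1 copy and its neighbours are silent there. Many imprinted genes act in growth, and several are abundant in neurons.

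Levels are given as scaled TPM, which is TPM (transcripts per 1000000, corrected for length) divided by a median-ratio factor for the library. The factor was 1.10 and 1.05 in the shCTCF libraries and 1.04 and 0.832 in the shLAC libraries, so that shLAC replicate 2 had lower TPM across most genes. After scaling, log values of the genes tested below correlated at r = 0.9957 between the shCTCF libraries and 0.9855 between the shLAC libraries. Between libraries of different groups r ran from 0.9852 to 0.9917, so the shLAC libraries were less alike than some pairs across groups. Ctcf itself had 3.25 and 3.39 scaled TPM in shCTCF, against 8.14 and 8.79 in shLAC, and fell by 1.13 on the log2 scale (SE 0.0650, limma adjusted p = 0.0107). All fold changes are on the log2(scaled TPM + 1) scale, which understates those of low genes. Neuronal markers were present in all libraries. Summed over 10 excitatory markers, the level was 251 and 242 scaled TPM in shCTCF, against 211 and 219 in shLAC, and over 10 inhibitory markers it was 257 and 260.0, against 259 and 249. Most of the excitatory sum came from Camk2a (103 and 98.3, against 75.3 and 88.2) and Slc17a7 (88.1 and 82.9, against 75.7 and 67.7). Of the 9 excitatory markers at a testable level, 6 had a positive log2 fold change and none was called by limma. Bcl11b, Neurod2 and Neurod6 were negative. The sum of 10 astrocyte markers was 113 and 90.0 scaled TPM in shCTCF, against 143 and 119 in shLAC. On the log2 scale only Sox9 of these 10 was higher in shCTCF, and the middle value of the list was -0.3. Aqp4 and Slc1a3 were called lower (limma adjusted p = 0.0358 and 0.0447), as were 1.98% of all tested genes. The sums of 8 microglial and 7 endothelial markers stayed at or under 2.97 and 0.721 scaled TPM in every library, with C1qb and Cldn5 listed at 0. The 12 fibroblast and meningeal markers summed to 51.8 and 38.4, against 49.4 and 37.7. Of those sums Igfbp2, a growth factor binding protein, made up 46.8 and 34.7 scaled TPM in shCTCF, against 44.2 and 32.7 in shLAC. Dcn had 1.91 and 1.68, against 3.04 and 2.80, and was called lower (limma adjusted p = 0.0431). Fn1 had 1.04 and 0.638, against 0.777 and 0.529. Ptgds averaged 1.29 in shCTCF, against 0.891 in shLAC, and was not called. The other markers of this list, among them Col1a1, Col1a2, Col3a1 and Lum, stayed under 0.3 in every library. The 6 choroid plexus and ependymal markers summed to 2.33 and 3.15, against 2.98 and 2.49. The 11 markers of proliferating and progenitor cells summed to 115 and 116, against 109.6 and 109.8, and the 10 of the oligodendrocyte lineage to 84.1 and 76.0, against 82.8 and 69.5. In such bulk RNA, fewer cells of a type and less RNA per cell cannot be told apart, and the part of cell composition in the values below was not tested.

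Of the 36 imprinted genes, 25 could be tested, which needed at least 1 TPM in at least 2 libraries and at least 300 nt of exons. None was called in either direction by limma, at an adjusted p below 0.05 over all genes tested. Of all 12409 tested genes, 3.18% passed that threshold, 1.20% as higher and 1.98% as lower. The lowest adjusted p was 0.0724, in Rasgrf1. At an unadjusted p below 0.05, 10 of the 25 passed, or 40.0%, against 21.5% of all tested genes. The fold changes were small: log2 values ran from -0.40 in Sgce to 0.28 in Plagl1. On the log2(scaled TPM + 1) scale, the 95% interval lay within 1.5-fold in either direction for 24 of the 25, and Sgce was the exception. The added 1 draws the folds and intervals of low genes such as Nespas, Commd1 and Sgce toward no change, so this count depends on that scale.

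Most of the small differences pointed upward. Among the 25, 18 had a positive log2 fold change, with a median of 0.11, whereas 49.9% of all tested genes were positive and their median was -0.001. In 15 of the 25, both shCTCF libraries lay above both shLAC libraries, and in 3 both lay below. Among all tested genes these shares were 27.1% and 26.2%. In Impact the separation rested on the fourth digit, since the nearer libraries both stood at 30.2. With 2 libraries against 2, an exact two-sided permutation test on 1 gene can go no lower than p = 0.333.

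**Figure D1:**
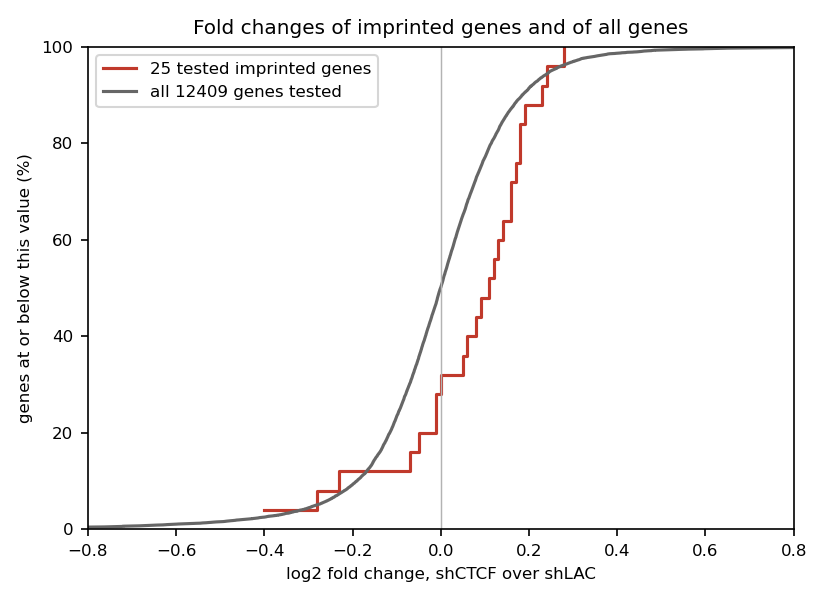
Share of genes (vertical axis, percent) at or below each log2 fold change of shCTCF over shLAC (horizontal axis), for the 25 tested imprinted genes and for all 12409 tested genes. The curve of the imprinted genes lies to the right over the middle of the range, with a median of 0.11 against -0.001.

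Both directions occurred whichever parental copy is expressed. Of 10 genes expressed from the maternal copy, 4 were tested and 0 were called, with a median log2 fold change of 0.11. The 3 positive ones, Meg3, Rian and Mirg, are neighbours in 1 cluster, and Commd1 was negative. Of 19 expressed from the paternal copy, 15 were tested and 10 were positive, with a median of 0.09. The other 7 (Grb10, Ddc, Gnas, Blcap, Igf2r, Inpp5f and Ube3a) use a copy that depends on cell type or transcript. Of these 6 were tested and 5 were positive, with a median of 0.14. The files do not separate the parental copies, so a gain on one copy and a loss on the other would not be seen.

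**Figure D2:**
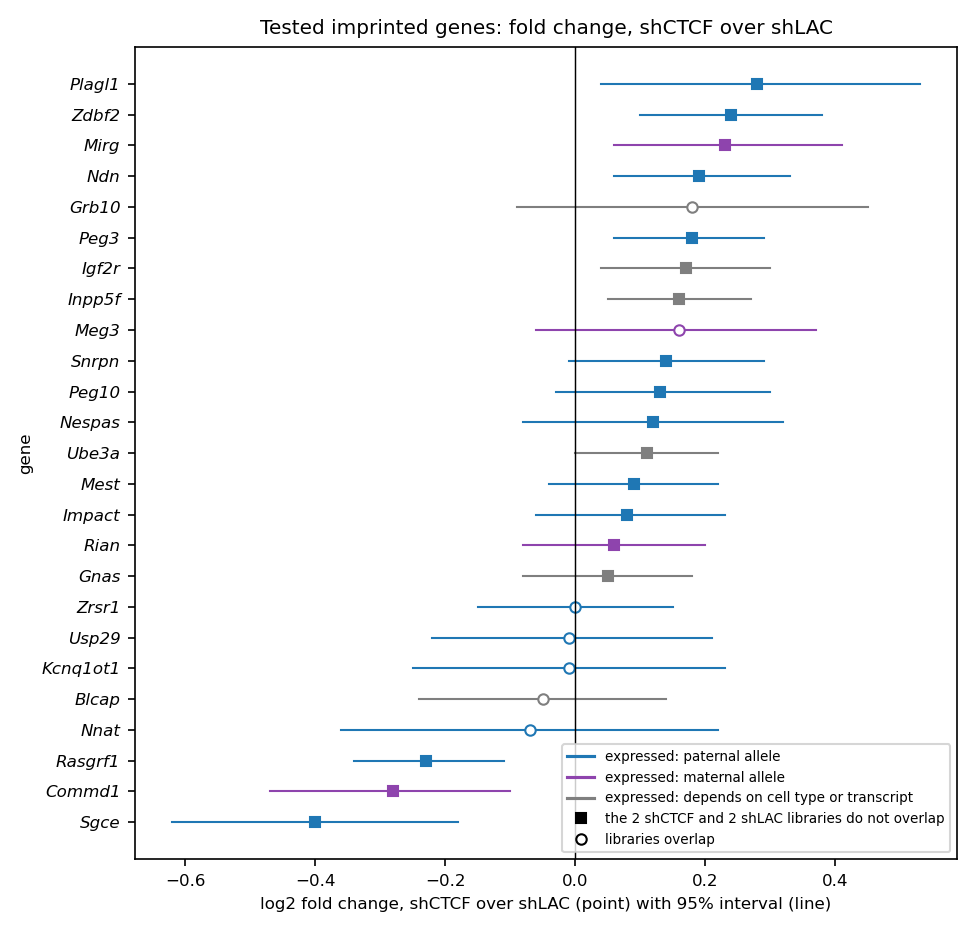
Log2 fold change of shCTCF over shLAC for each of the 25 tested imprinted genes (points) with its 95% interval from limma (lines), coloured by the parental copy expressed. Filled squares mark genes whose libraries do not overlap between groups; Sgce is lowest at -0.40 and Plagl1 highest at 0.28.

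2 stretches of sequence are shown because they lie at the starts of genes discussed below: Rasgrf1, with the lowest adjusted p, and the gap of 146 bases between Peg3 and Usp29, which are read in opposite directions. Both are RefSeq sequence on GRCm38, written on the + strand, and capitals mark CCCTC, the repeat for which CTCF is named, on either strand. The Rasgrf1 stretch is chr9:89909525-89909774, just before the RefSeq start, and the other is chr7:6730432-6730577.
Rasgrf1: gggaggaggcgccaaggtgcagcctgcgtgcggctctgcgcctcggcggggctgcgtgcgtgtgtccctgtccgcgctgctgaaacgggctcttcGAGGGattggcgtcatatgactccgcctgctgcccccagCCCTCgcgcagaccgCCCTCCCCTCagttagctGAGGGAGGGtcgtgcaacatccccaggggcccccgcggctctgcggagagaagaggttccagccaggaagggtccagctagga
Peg3-Usp29: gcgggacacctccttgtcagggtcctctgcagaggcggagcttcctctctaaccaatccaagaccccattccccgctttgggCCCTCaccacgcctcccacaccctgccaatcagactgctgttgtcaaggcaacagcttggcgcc
The repeat occurred 6 times in the first stretch and 1 time in the second, and some copies in the first overlap. It is common: 60.5% of all 32851 RefSeq promoter windows of 250 bases held it on either strand, and 66.7% of the 48 windows that belong to 30 of the imprinted genes. Longer motifs were rarer. The general CTCF core stood in 2.07% of all windows and in 0 of the 48, and the longer CTCF core known from the H19 control region in 0.0335% of all windows and in 0 of the 48, on either strand. TGCCGC, the letters bound by ZFP57, a zinc finger protein that keeps imprints methylated, stood in 8.68% of all windows and in 14.6% of the 48, which belonged to Calcr, Meg3, Mest, Plagl1, Zdbf2 and Zim1. A match is a description of the window and not a bound site, and the control regions themselves mostly lie outside these windows.

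The H19-Igf2 cluster, where the insulating role of CTCF is best known, was nearly silent. H19 (chr7:142575529-142578143), a maternally expressed noncoding RNA, had 0.246 and 0.152 scaled TPM in shCTCF, against 0.240 and 0.312 in shLAC. Igf2 (chr7:142650766-142666816), the paternally expressed growth factor, had 0.337 and 0.0762 in shCTCF, against 0.173 and 0.168 in shLAC. In both genes the groups overlapped, and neither reached the level needed for a test.

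In the neighbouring Kcnq1 cluster, the paternally expressed antisense RNA Kcnq1ot1 (chr7:143203458-143296549), which silences its neighbours, was the only member at a testable level. It had 6.56 and 6.69 scaled TPM in shCTCF, against 6.003 and 7.40 in shLAC. The shCTCF libraries lay between the shLAC libraries, and the fold was 0.994 (95% interval 0.844 to 1.17, limma adjusted p = 0.969). Its sign turned in the values as deposited. Cdkn1c, a maternally expressed inhibitor of the cell cycle, had 0.201 and 0.200 scaled TPM in shCTCF, against 0.326 and 0.276 in shLAC. Phlda2, a maternally expressed gene that restrains placental growth, was listed at 0 except for 0.0360 scaled TPM in shLAC replicate 2. Kcnq1, which Kcnq1ot1 overlaps on the opposite strand, averaged 0.04 TPM as deposited.

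The Dlk1-Meg3 cluster on chromosome 12 held the most abundant member. Rian (chr12:109603940-109661716), a maternally expressed noncoding RNA that carries small nucleolar RNAs, had 526 and 532 scaled TPM in shCTCF, against 503 and 512 in shLAC. Meg3 (chr12:109541001-109571726), the first of its maternally expressed noncoding RNAs along the chromosome, had 253 and 290.1 in shCTCF, against 232 and 254 in shLAC. The Rian libraries did not overlap between groups, although the fold was 1.04 (95% interval 0.945 to 1.15, limma adjusted p = 0.590), and those of Meg3 did (fold 1.12, 0.962 to 1.29, adjusted p = 0.355). Mirg (chr12:109729764-109749460), the microRNA host at the far end, had 12.7 and 13.8 scaled TPM in shCTCF, against 10.6 and 11.7 in shLAC. Both shCTCF libraries lay above both shLAC libraries, with a fold of 1.18 (95% interval 1.04 to 1.33, limma adjusted p = 0.151). Dlk1, the paternally expressed Notch-related ligand of the cluster, stayed low at 0.392 and 0.343 scaled TPM in shCTCF, against 0.134 and 0.288 in shLAC, without overlap. It was under the level needed for a test.

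Among the tested members of this cluster Mirg had the largest fold change, and the RNAs it carries are shown for that reason. Within its span RefSeq places 14 microRNA hairpins on the same strand, among them miR-134, which is known from rat neurons as a regulator of dendritic spine size, and a pair with the same seed. Capitals mark the seed (bases 2 to 8) in each mature sequence, written 5′ to 3′.
mmu-miR-134-5p: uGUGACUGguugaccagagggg
mmu-miR-453: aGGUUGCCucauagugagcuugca
mmu-miR-496a-5p: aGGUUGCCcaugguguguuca
All 14 hairpin genes were listed at 0 TPM in all 4 libraries. The libraries were made from fragments of about 300 bases, so mature microRNAs were not measured, and nothing follows for them from the Mirg level.

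At the Peg3 cluster, the groups were separate for Peg3 but not for its divergent neighbour Usp29, and the difference between the 2 genes was not tested. Peg3 (chr7:6703892-6730431), a paternally expressed zinc finger gene, had 39.9 and 41.0 scaled TPM in shCTCF, against 35.7 and 35.6 in shLAC. The groups were separate, with a fold of 1.13 (95% interval 1.05 to 1.22, limma adjusted p = 0.107). Usp29 (chr7:6730578-6967219), a paternally expressed gene for a ubiquitin peptidase, had 13.3 and 13.7 in shCTCF, against 12.4 and 14.8 in shLAC. Its shCTCF libraries fell between its shLAC libraries (fold 0.996, 0.858 to 1.16, limma adjusted p = 0.979), and its sign turned under 2 of the other scalings. Without shLAC replicate 1 the log2 fold change was 0.18 in Peg3 and -0.12 in Usp29, and without shLAC replicate 2 it was 0.17 and 0.11. Zim1, the maternally expressed neighbour, had 0.620 and 0.447, against 0.575 and 0.661, and was not tested.

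The Snrpn-Ube3a cluster is the region of the Prader-Willi and Angelman syndromes in humans. Its 3 tested genes were each separate between the groups with shCTCF above, as were 27.1% of all tested genes. Snurf, left out of the main test for its length, overlapped between the groups. Ndn (chr7:62346569-62350262), a paternally expressed MAGE family gene, had 80.4 and 85.1 scaled TPM in shCTCF, against 74.2 and 70.1 in shLAC. Its fold was 1.14 (95% interval 1.04 to 1.26, limma adjusted p = 0.133). Snrpn (chr7:59982495-60140219), which encodes a splicing protein from the paternal copy, had 160.2 and 147 in shCTCF, against 137 and 141 in shLAC, a fold of 1.10 (0.990 to 1.22, adjusted p = 0.270). Ube3a (chr7:59228750-59311536) encodes a ubiquitin ligase that neurons express from the maternal copy. It had 29.1 and 29.8 scaled TPM in shCTCF, against 27.2 and 27.3 in shLAC (fold 1.08, 0.998 to 1.17, limma adjusted p = 0.244). Magel2, another paternally expressed MAGE family gene, was low at 0.319 and 0.371, against 0.249 and 0.300.

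Reads in this cluster are hard to assign. Snurf, at 187 and 180.0 scaled TPM in shCTCF and 167 and 213 in shLAC, lies within Snrpn on the same strand and has 216 nt of annotated exons, so it was left out of the main test. When genes under 300 nt or with no annotated length were added, its fold was 0.972 (95% interval 0.767 to 1.23, limma adjusted p = 0.889). Ube3a is overlapped on the opposite strand by Snhg14, the long paternally expressed RNA whose far end runs antisense to it, and without strand their shared reads cannot be told apart. Snhg14, which was not on the list and was added after its values were seen, had 2471 and 2754 scaled TPM in shCTCF, against 2350 and 2414 in shLAC (fold 1.10, 0.927 to 1.29, limma adjusted p = 0.483).

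The Sgce-Peg10 cluster on chromosome 6 held neighbours with values of opposite direction. Sgce and Peg10 are both expressed from the paternal copy, with 98 bases between their starts and opposite directions of transcription. Sgce (chr6:4674350-4747207), which encodes epsilon-sarcoglycan and is mutated in human myoclonus dystonia, had 3.91 and 3.23 scaled TPM in shCTCF, against 4.93 and 5.09 in shLAC. Both shCTCF libraries lay below both shLAC libraries, with a fold of 0.758 (95% interval 0.651 to 0.882, limma adjusted p = 0.0798). Peg10 (chr6:4747306-4760517), a gene derived from a retrotransposon, had 4.14 and 3.86 in shCTCF, against 3.65 and 3.46 in shLAC. Here both shCTCF libraries lay above (fold 1.10, 0.978 to 1.23, limma adjusted p = 0.317). Of the settings tried, Sgce passed the threshold only when shLAC replicate 1 was left out (limma adjusted p = 0.0492). The maternally expressed Asb4 and Calcr stayed at or under 0.0671 scaled TPM in every library.

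A ratio of 2 genes within a library does not depend on the scaling between libraries, so 8 pairs of neighbours with both genes at a testable level were also set side by side. The Peg10 to Sgce ratio was 1.06 and 1.20 in shCTCF, against 0.741 and 0.679 in shLAC, a mean log2 difference of 0.67. That was the widest of the 8. The Commd1 to Zrsr1 ratio was 0.365 and 0.402 in shCTCF, against 0.539 and 0.451 in shLAC, a mean log2 difference of -0.37. Usp29 to Peg3 gave 0.332 and 0.335 in shCTCF, against 0.347 and 0.416 in shLAC, and Gnas to Nespas gave 271 and 277, against 292 and 333. In these 4 pairs the groups did not overlap. Mirg to Meg3 was also separate, at 0.0505 and 0.0477, against 0.0456 and 0.0463. The nearer libraries of the groups were close in this pair and in Usp29 to Peg3. The groups overlapped for Rian to Meg3 (mean log2 difference -0.10), Ube3a to Snrpn (-0.02) and Blcap to Nnat (0.02). Separation is common with so few libraries. In level, 27.1% of all tested genes were separate with shCTCF above and 26.2% with shCTCF below. The share among ratios of other gene pairs was not computed.

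**Figure D3:**
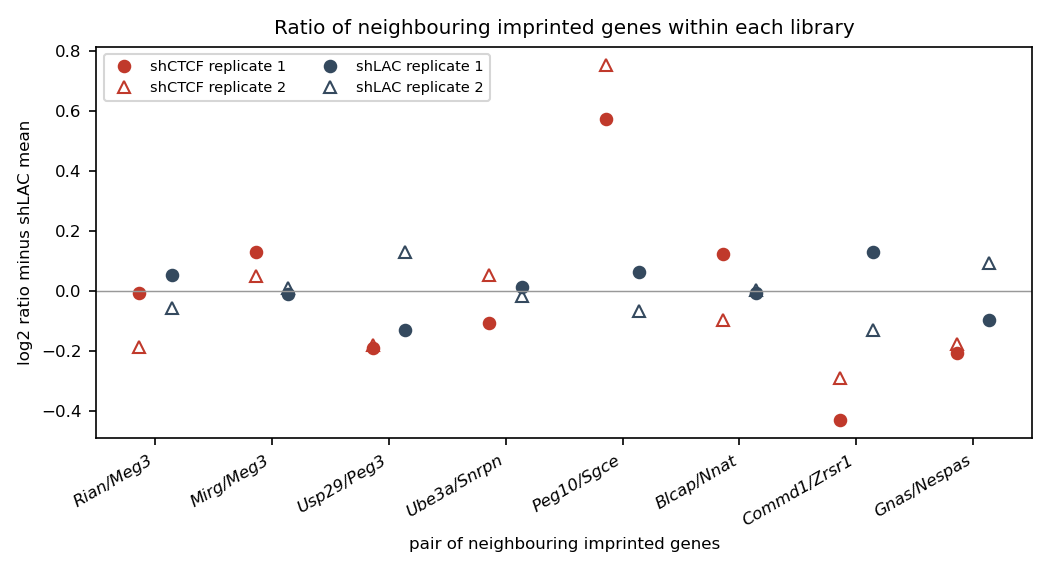
Log2 ratio of 2 neighbouring imprinted genes in each library (vertical axis), with the mean of the shLAC libraries of that pair subtracted, for 8 pairs. The Peg10/Sgce ratio stands highest in the shCTCF libraries and Commd1/Zrsr1 lowest, with mean log2 differences of 0.67 and -0.37.

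Commd1 and Zrsr1 overlap on opposite strands on chromosome 11. Commd1 (chr11:22896136-22982382), which acts in copper balance and protein sorting and favours the maternal copy in mouse brain, had 2.96 and 3.10 scaled TPM in shCTCF, against 4.13 and 3.69 in shLAC. The groups were separate, with a fold of 0.822 (95% interval 0.724 to 0.934, limma adjusted p = 0.112). Zrsr1 (chr11:22972005-22976496), a paternally expressed splicing factor gene inside a Commd1 intron, had 8.12 and 7.71 in shCTCF, against 7.66 and 8.17 in shLAC, which overlapped (fold 1.0, 0.901 to 1.11, limma adjusted p = 0.997). Commd1 also shares its strand with Gm28048, at 3.28 and 2.56 in shCTCF and 3.35 and 2.99 in shLAC, so the division of reads between them is uncertain.

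Nnat and Blcap, on chromosome 2, likewise overlap on opposite strands. Nnat (chr2:157560078-157562522), a paternally expressed small membrane protein of developing neurons, had 345 and 426 scaled TPM in shCTCF, against 379 and 428 in shLAC. Blcap (chr2:157556362-157571274), the surrounding gene, had 20.1 and 21.4 in shCTCF, against 20.1 and 23.1 in shLAC. Both pairs of groups overlapped, with folds of 0.952 (95% interval 0.778 to 1.16) and 0.964 (0.845 to 1.10), at limma adjusted p = 0.774 and 0.735. Both signs turned in the values as deposited.

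At the Gnas locus, also on chromosome 2, Gnas (chr2:174284320-174346744) encodes the stimulatory G protein alpha subunit, with some transcripts from 1 parental copy only. It had 313 and 306 scaled TPM in shCTCF, against 302 and 296 in shLAC (fold 1.04, 95% interval 0.946 to 1.13, limma adjusted p = 0.631). Its paternally expressed antisense RNA Nespas had 1.16 and 1.10 in shCTCF, against 1.04 and 0.889 in shLAC, where replicate 2 stayed under 1 TPM as deposited (fold 1.09, 0.944 to 1.25, limma adjusted p = 0.451). Both genes were separate between groups with shCTCF above, as were 27.1% of all tested genes. The file sums all Gnas transcripts, so the imprinted ones were not seen singly. Nespas and Gnas overlap on opposite strands, and strand use is not known. The low Nespas level, and its ratio to Gnas, may therefore include Gnas reads.

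The single loci on the upward side were led by Plagl1 (chr10:13060504-13131694), a paternally expressed zinc finger gene that acts on other imprinted genes in mouse. Plagl1 had 7.12 and 7.93 scaled TPM in shCTCF, against 5.45 and 6.62 in shLAC (fold 1.22, 95% interval 1.03 to 1.44, limma adjusted p = 0.189). Of the settings tried, it passed only without shLAC replicate 2 (limma adjusted p = 0.0381). Zdbf2 (chr1:63273265-63314576), a paternally expressed gene linked to feeding and growth in mouse, had 5.28 and 5.24 in shCTCF, against 4.32 and 4.30 in shLAC, a fold of 1.18 (1.07 to 1.30, limma adjusted p = 0.0949). Replicates of Zdbf2 lay close together within each group. Inpp5f (chr7:128611328-128696425), an inositol phosphatase gene with an imprinted transcript in brain, had 44.1 and 44.2 scaled TPM in shCTCF, against 39.4 and 39.3 in shLAC (fold 1.12, 1.04 to 1.21, limma adjusted p = 0.119). Igf2r (chr17:12682406-12769664) encodes the receptor that clears IGF2 and is expressed from both copies in neurons. It had 10.2 and 10.4 in shCTCF, against 8.89 and 9.25 in shLAC, a fold of 1.13 (1.03 to 1.23, limma adjusted p = 0.155).

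Smaller differences were seen in Mest and Impact, and a less even one in Grb10. Mest, a paternally expressed hydrolase-like gene, had 17.9 and 17.2 scaled TPM in shCTCF, against 16.7 and 16.3 in shLAC (fold 1.06, 95% interval 0.975 to 1.16, limma adjusted p = 0.371). Impact, a paternally expressed inhibitor of the translation kinase GCN2, had 31.6 and 30.2 in shCTCF, against 30.2 and 28.04 in shLAC (fold 1.06, 0.960 to 1.17, limma adjusted p = 0.452). Grb10 is an adaptor that dampens insulin signalling, expressed from the paternal copy in neurons and from the maternal copy in most other tissues. It had 12.5 and 13.8 in shCTCF, against 10.3 and 12.8 in shLAC, and the groups overlapped (fold 1.13, 0.938 to 1.36, limma adjusted p = 0.402). Its neighbour Ddc, the decarboxylase of dopamine and serotonin synthesis, stayed under 1 TPM at 0.547 and 0.714 scaled TPM, against 0.547 and 0.757.

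Rasgrf1 (chr9:89909908-90026977) was the only single locus on the downward side. It encodes a Ras exchange factor of neurons, and in mouse CTCF binds a control region well upstream of its promoter and keeps an enhancer from acting on the maternal copy. Rasgrf1 had 23.2 and 22.9 scaled TPM in shCTCF, against 26.7 and 27.5 in shLAC. Both shCTCF libraries lay below both shLAC libraries, with a fold of 0.855 (95% interval 0.789 to 0.928, limma adjusted p = 0.0724). As deposited, without scaling, the log2 fold change was -0.03.

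**Figure D4:**
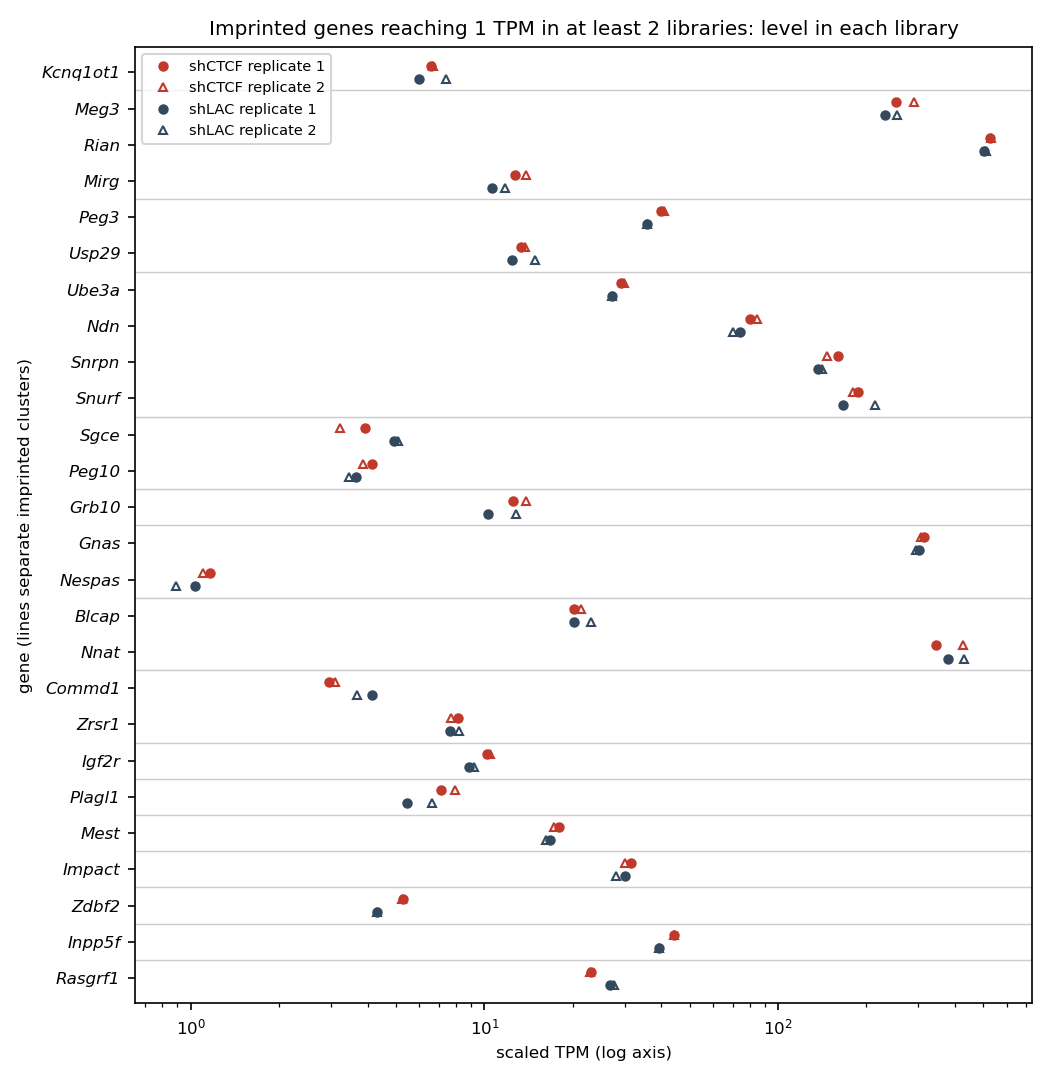
Scaled TPM (horizontal log axis) in each library for the 26 imprinted genes that reached 1 TPM in at least 2 libraries, with shCTCF above shLAC in each row. Means over libraries run from 1.05 in Nespas to 518 in Rian, and the gap between groups is small against the range between genes.

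Levels between genes, which TPM makes comparable by length, differed far more than the groups did. Rian, Nnat, Gnas and Meg3 led the testable members, at group means of 529 and 508, 386 and 404, 310 and 299, and 271 and 243 scaled TPM in shCTCF and shLAC. The replicate spread of Nnat was ± 57.3 in shCTCF and ± 34.8 in shLAC (SD, n = 2 each), and in all 4 libraries it lay below Rian and above Gnas and Meg3. The 4 highest members together held 67.8% of the summed level of the 36, averaged over libraries. 10 members stayed under 1 TPM in every library, with 0.75 TPM as the highest value among them.

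Among 48 further imprinted genes listed beside these, 26 were tested, 13 of them with a positive log2 fold change and a median of 0.01, and 2 fell. Of all tested genes, 1.98% were called lower. An unadjusted limma p below 0.05 was reached by 8 of the 26, against 21.5% of all tested genes. Gatm, which makes the precursor of creatine, had 5.02 and 5.55 scaled TPM in shCTCF, against 8.05 and 7.45 in shLAC (log2 fold change -0.48, SE 0.0714, limma adjusted p = 0.0358). Dcn, a matrix proteoglycan that is also a fibroblast marker, had 1.91 and 1.68 in shCTCF, against 3.04 and 2.80 in shLAC (-0.49, SE 0.0792, limma adjusted p = 0.0431). Both are imprinted chiefly in the placenta, and the other 24 did not pass. Neither call held when genes under 300 nt or with no annotated length were added to the test and the scaling, nor without either shCTCF library.

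None of 21 tested genes that act in imprint maintenance or its chromatin passed, against 3.18% of all tested genes. At an unadjusted limma p below 0.05, 2 of the 21 passed, against 21.5% of all tested genes. Dnmt3a, a DNA methyltransferase that sets methylation, had 26.2 and 25.0 scaled TPM in shCTCF, against 22.0 and 22.4 in shLAC (log2 fold change 0.20, limma adjusted p = 0.103). Trim28, the corepressor that ZFP57 recruits, had 23.0 in both shCTCF libraries, against 23.2 and 21.7 in shLAC (log2 fold change 0.03, limma adjusted p = 0.759).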

How the data were processed

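The authors deposited TPM values by Ensembl gene, a file for each library, covering 37437 genes. The submitters' processing notes name RSEM 1.2.28, CASAVA and mm10. Annotation release, aligner settings and strand use were not found in the labels. TPM keeps no depth, so no counting interval is given. GENCODE vM21 on GRCm38, the assembly of mm10, matched 37060 identifiers.

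The 12409 genes that reached 1 TPM in 2 or more libraries and had 300 nt of exons or more were divided by median-ratio factors. Their log2(scaled TPM + 1) values were fitted by group with limma 3.58.1 (R 4.3.3), using a trend in the prior, and p-values were adjusted by Benjamini-Hochberg (threshold 0.05). The prior had 3.64 degrees of freedom. Without scaling it was infinite, so that a gene's own spread did not count. The fit was also run on simulated data, with planted changes larger than those of the tested members. Spreads were shuffled between genes there, so that run does not bear on the members. Python 3.11.15 made the tables and plots.

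The members, clusters and lists were chosen with earlier results of these data known. Values in every library are given for tested members. From the lists of other imprinted and imprint maintenance genes the called genes were named, and otherwise the 2 most abundant. Marker lists are given as sums, and their genes named were chosen after values were seen. Alternatives were other scalings, gene sets, filters, pseudocounts and priors, a block by replicate number, and leaving out each library.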

Additional observations from a re-analysis of the deposited data

How the results depend on the processing

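With all 4 libraries, 0 of the imprinted genes were called under each of the 11 other settings, and the lowest limma adjusted p was 0.0523, for Rasgrf1 among protein-coding genes. With 1 library left out, 0 to 1 were called higher and 0 to 1 lower (Plagl1 without shLAC replicate 2, Sgce without shLAC replicate 1). A count added after seeing the data, of tested members with a positive log2 fold change, was 18 of 25, and its share lay between 22 of 35 (no expression filter) and 22 of 25 (as deposited, where the median of all genes was 0.17, and without shLAC replicate 2). Of 365 member values under other settings, 15 turned sign, in 5 members close to 0. Those with all libraries were Kcnq1ot1 (0.17), Usp29 (0.19), Blcap (0.14) and Nnat (0.13) as deposited, Usp29 (0.0022) with upper-quartile scaling and Zrsr1 (-0.00053) with genes under 300 nt or of no annotated length added to test and scaling. With 1 library left out, values ran from -0.14 to 0.12 in Kcnq1ot1, -0.12 to 0.11 in Usp29, -0.14 to 0.04 in Blcap, -0.22 to 0.08 in Nnat and -0.04 to 0.04 in Zrsr1.

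The count over all genes, 149 higher and 246 lower, depended on the setting. It was 137 and 71 as deposited, 47 and 87 with those genes added, 242 and 328 among protein-coding genes, 0 and 0 with no expression filter, and 70 and 138 where the mean reached 5 TPM. With 1 library left out it ran from 0 to 373 higher and 0 to 558 lower, with both at 0 without either shCTCF library and at their highest without shLAC replicate 1. Ctcf then ran from -1.18 to -1.10, and missed the threshold without shCTCF replicate 1 (limma adjusted p = 0.166) or 2 (limma adjusted p = 0.204), and it was -1.13 (limma adjusted p = 0.0519) with no expression filter. The 2 calls among other imprinted genes became 0 as deposited, with those genes added and with no filter, 1 where the mean reached 5 TPM, and 0 to 3 with a library left out. The causes were not tested.

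The replicate numbers are not said to pair the samples. Same-numbered deviations correlated at r = 0.326 across genes. A replicate block gave 210 higher and 315 lower genes and 0 imprinted members.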

Other observations

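Inside Rian lies the short gene Mir1188 (chr12:109611822-109611941, 120 nt, same strand), which was listed at 0 in both shCTCF libraries, against 13.4 and 13.5 scaled TPM in shLAC, while Rian itself differed by a fold of 1.04. Genes this short are estimated poorly from fragments of about 300 bases, and the other 2 hairpin genes in Rian were listed at 0 in all libraries.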
